A study of Gallus gallus with 2 samples.

Results

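Cells with a summed level of TBX6 and MSGN1, transcription factor genes of the presomitic mesoderm, above a threshold made up 1728 of 12336 kept cells in the tail end of the chicken embryo (Gallus gallus), a share of 14.0% (exact Clopper-Pearson 95% interval 13.4 to 14.6%). A cell was kept when it held at least 4000 gene molecules, of which at most 20% came from 13 mitochondrial genes. Levels are molecules per 10000 gene molecules. Members were chosen by measured levels of 5 genes: a kept cell was a member when its summed TBX6 and MSGN1 level was at least 2, its summed RIPPLY2 and MESP1 level was under 1 and its SHH level was under 3. The limit on RIPPLY2 and MESP1, which mark the front of the presomitic mesoderm where the next somite forms, left out 309 cells, and the limit on SHH, a notochord and floor plate signal, left out 22. The other 10608 kept cells served as the comparison.

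The tissue was wild type, was taken after 72 h of incubation at 35 somites, and came from controls and from embryos treated with homocysteine in a volume of 20 uL, either as a high dose of 19 mM or as a low dose of 0.5 mM. Dissociated cells of each tissue were tagged with lipid-anchored barcode oligonucleotides, pooled, and captured in the microwells of the BD Rhapsody system, which gave 1 whole-transcriptome library and 1 barcode library. No label ties a barcode to a treatment, so treated embryos were not set against controls. There was thus 1 pooled sample with no replicates and no test, and all intervals cover counting error only. A gene counts as higher or lower when it differed at least 2-fold.

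The presomitic mesoderm is the strip of unsegmented tissue on either side of the neural tube that is fed by progenitors in the tailbud and is cut into somites at its front end. Its cells leave the tailbud under high WNT and FGF signalling, turn SOX2 down and TBX6 and MSGN1 on, and are patterned by Notch signals that oscillate as a segmentation clock. As FGF and WNT signals fade and retinoic acid from the somites takes over, the cells turn on genes of the somite such as MEOX1, FOXC2 and TCF15.

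The members were sequenced about as deeply as the rest. Their median was 29959 molecules (4012 to 174095), against 29888 in other kept cells, and their median mitochondrial share was 12.9% against 12.7%. A median of 22 TBX6 and MSGN1 molecules put a cell in, and 1416 members (81.9%) had at least 10, while 17 rested on 1 molecule. Of the members, 1497 (86.6%) held both transcripts, 556 passed with TBX6 alone, 118 with MSGN1 alone, 878 with either one by itself and 176 only with the sum. Doublets were not called. Members of more than 50000 molecules numbered 409 (23.7%, against 21.1% of other kept cells). In 33 members (1.91%) more than 1 lipid barcode reached 5 times its background, the median in cell barcodes under 500 gene molecules. Nearly all members held some molecules of several lipid barcodes, and the 1.91% does not measure the doublet rate.

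The values that chose the members are given as a description. TBX6 (chromosome 15, 8245094 to 8268978 on GRCg7b, RefSeq; listed there with the synonym Tbx6L) had a median over members of 3.50, with quartiles of 2.31 and 5.80 and a highest value of 16.2. MSGN1, encoding mesogenin 1 (chromosome 3, 99974025 to 99975326), had a median of 2.55 and a highest value of 19.1. The summed level had a median of 6.19 and ran from 2.01 to 29.7. The 176 members at 2 to 2.5 had summed-count levels of 1.57 for TBX6, 0.663 for MSGN1 and 2.30 for DLL1, and the 192 cells just outside, at 1.5 to 2, had 1.38, 0.353 and 1.71. Both bands were set by the summed level, so these TBX6 and MSGN1 values follow from the rule. The TBX6 locus overlaps CRKL and the DLL1 locus overlaps FAM120B, and whether the counting used strand is not given in the sources used here.

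DLL1, the Notch ligand that was named as a marker but played no part in the choice, was at 4.91 (4.86 to 4.97) in members and 0.696 (0.688 to 0.704) in other kept cells, a log2 ratio of 2.82. It lies on chromosome 3 at 40510855 to 40522846. Within each lipid barcode taken by itself the members were also higher, at 3.74 against 0.432 for SBC2, 4.85 against 0.583 for SBC3 and 2.43 against 0.453 for SBC7. With every cell thinned to 4000 molecules, 72.2% of members had a DLL1 molecule, as did 12.1% of other kept cells, 13.3% of 347 endothelial cells and 1.66% of 181 erythroid cells. Without thinning the shares were 91.7%, 36.4%, 47.6% and 11.6%, at median depths of 29959, 29888, 31417 and 21882 molecules. Free RNA, taken from barcodes under 500 molecules, held DLL1 at 1.35, above its level in other kept cells, and also TBX6 at 0.58 and MSGN1 at 0.41. How much free RNA a kept cell holds was not measured, so the part of background in low levels of these genes outside the members was not tested.

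Marker lists of other cell types were lower in members than in other kept cells. The summed level was 1.26 against 28.4 for 8 erythroid genes, 2.77 against 9.18 for surface ectoderm, 0.793 against 2.94 for endothelium, 0.626 against 2.68 for hindgut endoderm, 1.20 against 1.89 for neural tube and 1.71 against 3.97 for neural crest. Lateral plate mesoderm genes summed to 3.90 against 9.15, intermediate mesoderm genes to 1.70 against 2.20, macrophage genes to 0.110 against 0.239 and limb bud mesenchyme genes to 9.01 against 17.5. Each of these sums in members was below the sum in free RNA, and no measured gene of these lists was at 0. Within barcodes the neural tube sum was lower in SBC3 cells alone, at 1.35 against 1.69. It was 1.21 against 1.08 in SBC2 cells and 1.088 against 1.085 in SBC7 cells. The 2 lists that were higher over all cells were the somite list, at 13.2 against 5.68, and the notochord list, at 4.79 against 2.36. Of 4 notochord genes tested, TBXT was at least 2-fold higher, while CHRD and LMX1B were at least 2-fold lower. Other kept cells include cells of the other tissues, so the lower sums follow in part from the comparison. Against the progenitor set defined below, the limb bud sum was higher in members, at 9.01 against 5.29. So were the lateral plate (3.90 against 1.72), erythroid, intermediate mesoderm, neural crest, surface ectoderm, endothelium and macrophage sums. The neural tube sum, which includes SOX2, a gene that sets the progenitor set, was lower (1.20 against 4.47), as was the hindgut sum.

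The label posterior presomitic mesoderm fits only some of the members. High levels of TBXT and of the somite gene MEOX1 were mostly in different members, as the results on these 2 genes below show. Most members still held molecules of both, since TBXT had none in 238 and MEOX1 none in 395 of 1728. DLL1 and RSPO3 of the posterior list were present in members with and without high TBXT. The members are therefore called TBX6/MSGN1 cells here.

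Against other kept cells, 184 of 8844 genes tested (2.08%) were at least 2-fold higher in TBX6/MSGN1 cells and 301 (3.4%) at least 2-fold lower, with a median log2 ratio of -0.01 over all genes. KCNS3, a modulatory subunit of voltage-gated potassium channels, led the higher genes by ratio, with 0.661 in members against 0.0612 (log2 3.43, counting interval 3.36 to 3.51). FGF18, a secreted fibroblast growth factor, was at 1.54 against 0.173 (log2 3.16). VENTX, a homeobox gene of the Vent family, was at 3.15 against 0.43 (log2 2.86). Each of these genes was above its free RNA level in members, which was 0.14, 0.65 and 0.72.

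The next genes by ratio took in surface and matrix proteins. B3GALT5, a galactosyltransferase, had a log2 ratio of 2.85, PLXNA2, a semaphorin receptor, 2.62, PCDH8, the protocadherin of the presomitic mesoderm also known as PAPC, 2.54, and HAPLN1, which links hyaluronan to proteoglycans, 2.43. The secreted peptide gene ENHO stood at 2.47, the membrane protein gene TMEM100 at 2.45, the neuronal RNA-binding protein gene ELAVL2 at 2.33, CLEC19A at 2.28 and RND2 at 2.24. CD3E, known for its part in the T cell receptor complex, was at 2.35, and its locus overlaps MPZL2 in RefSeq. The same direction within SBC2, SBC3 and SBC7 cells was a condition for naming a gene here, and the log2 ratios within a barcode ran from 1.39 (HAPLN1 in SBC7) to 3.45 (KCNS3 in SBC2).

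**Figure D1:**
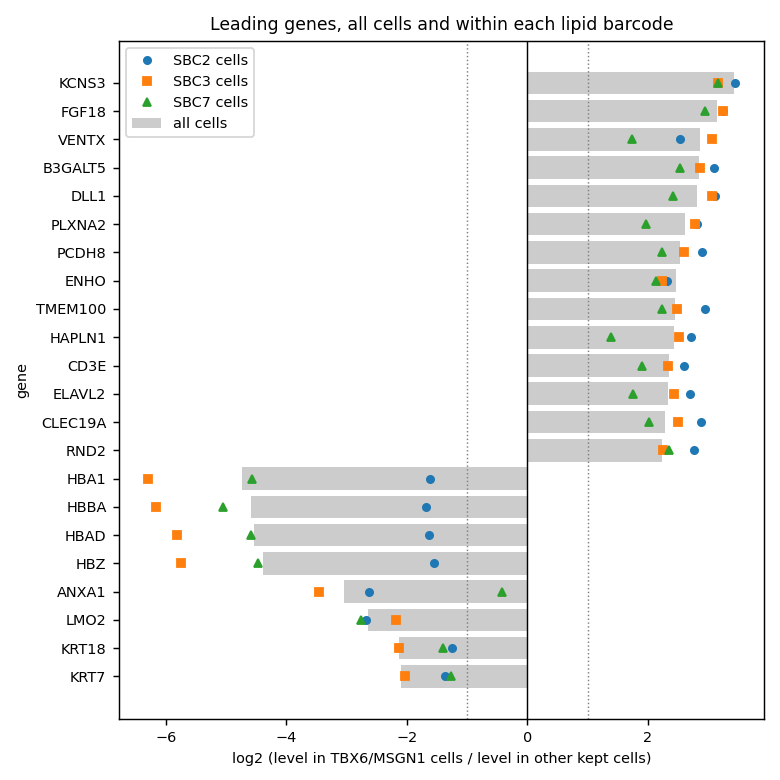
Log2 ratio of the level in TBX6/MSGN1 cells to that in other kept cells for 14 of the highest and 8 of the lowest genes by the naming rule; bars are all cells, symbols are cells of 1 lipid barcode, and dotted lines mark 2-fold. Genes were taken by ratio and by a shared direction in the 3 barcodes; within a barcode the 14 higher genes run from 1.39 to 3.45 and the 4 globin genes from -1.54 to -6.29.

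The genes lowest in members are known from blood, endothelium and epithelium. The globin genes HBA1, HBBA, HBAD and HBZ had log2 ratios of -4.74, -4.59, -4.53 and -4.38, with HBBA at 0.44 in members, 10.5 in other kept cells and 16.2 in free RNA. With the erythroid cells left out of the comparison the log2 ratios of the 4 genes were -0.81, -0.70, -0.71 and -0.67, each under 2-fold. ANXA1, a phospholipid-binding protein gene, was at -3.05 (-0.43 in SBC7 cells), LMO2, a regulator of blood and endothelium, at -2.65, and the keratin genes KRT18 and KRT7 at -2.13 and -2.10.

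Over all genes tested, 2.08% were higher and 3.4% lower. The posterior presomitic list had 8 of 14 tested genes higher and none lower, with a median log2 ratio of 1.39. Besides DLL1 and PCDH8 these were RSPO3, a secreted amplifier of WNT signalling (3.96 against 0.93), the N-cadherin gene CDH2 (3.37 against 1.57), CDX4, a homeobox regulator of posterior HOX genes (1.59 against 0.40), TBXT, WNT3A and FGF8. The anterior presomitic and somite list had 4 of 10 higher and 1 lower (median 0.93). MEOX1, a homeobox gene of the somite, was at 5.52 against 2.26, and FOXC2, a forkhead gene of the paraxial mesoderm, at 6.60 against 2.71. EPHA4, a receptor at somite borders, and FST, encoding the activin antagonist follistatin, were also higher, while ALDH1A2, which makes retinoic acid, was lower (0.98 against 2.04). The median of the posterior list was 0.0003 over 12 genes against the progenitor set and 0.22 over 13 against the anterior set, both defined below. Against the somite set, also defined below, it was 1.91 over 13 genes. The posterior list as a whole was thus not particular to the members beside the progenitor and anterior sets.

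Secreted ligands of both the WNT and the FGF pathway were among the genes past 2-fold. In the WNT list 8 of 36 genes were higher and 1 lower, with a median of 0.05, where 2.08% of all genes tested were higher and 3.4% lower. The higher ones were the ligands WNT3A (1.27 against 0.39), WNT8A and WNT11, the receptor FZD10 (2.14 against 1.05), RSPO3, the nuclear effector LEF1 (2.78 against 1.24), and the targets NKD1 and SP5. The ligand WNT6, known from ectoderm, was lower, and CTNNB1, encoding beta-catenin, had a log2 ratio of -0.13. In the FGF list 6 of 22 genes were higher and 3 lower, with a median of 0.40. The ligands FGF3, FGF4, FGF8 and FGF18 had log2 ratios of 2.19, 2.29, 1.68 and 3.16, the feedback inhibitors SPRY4 and IL17RD 1.17 and 1.22, and FGF12, FGFR2 and FGFR3 were lower. Against the progenitor set defined below, 4 of 36 WNT genes were higher and 9 lower, and 2 of 22 FGF genes higher and 4 lower. Over all genes in that comparison 3.58% were higher and 2.79% lower. WNT8A, FGF8 and SPRY4 were among the lower ones there, and WNT11, RSPO3, LEF1 and FGF18 among the higher.

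The Notch list had 1 of 20 genes higher, DLL1, and 3 lower, the ligand genes JAG1 and JAG2 and the target gene HES5 (0.65 against 2.18), with a median of -0.11. The shares over all genes tested, here and for the next 2 lists, were 2.08% higher and 3.4% lower, beside which 1 higher gene of 20 is not a result. The receptor NOTCH1 was at 2.81 against 1.75, the feedback regulator NRARP at 2.46 against 1.66 and the clock gene HES4 at 2.04 against 3.15, each under 2-fold. LFNG, the glycosyltransferase whose transcripts oscillate in the chick presomitic mesoderm, was at 0.77 in members, 0.75 in other kept cells and 0.88 in free RNA. The retinoic acid list had none of 11 higher and 3 lower, ALDH1A2, CYP26A1 and DHRS3, with a median of -0.77. In the BMP and TGF-beta list 2 of 26 were higher, BMPR1B and FST, and 4 lower, BMP5, BMP7, TGFB2 and CHRD.

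**Figure D2:**
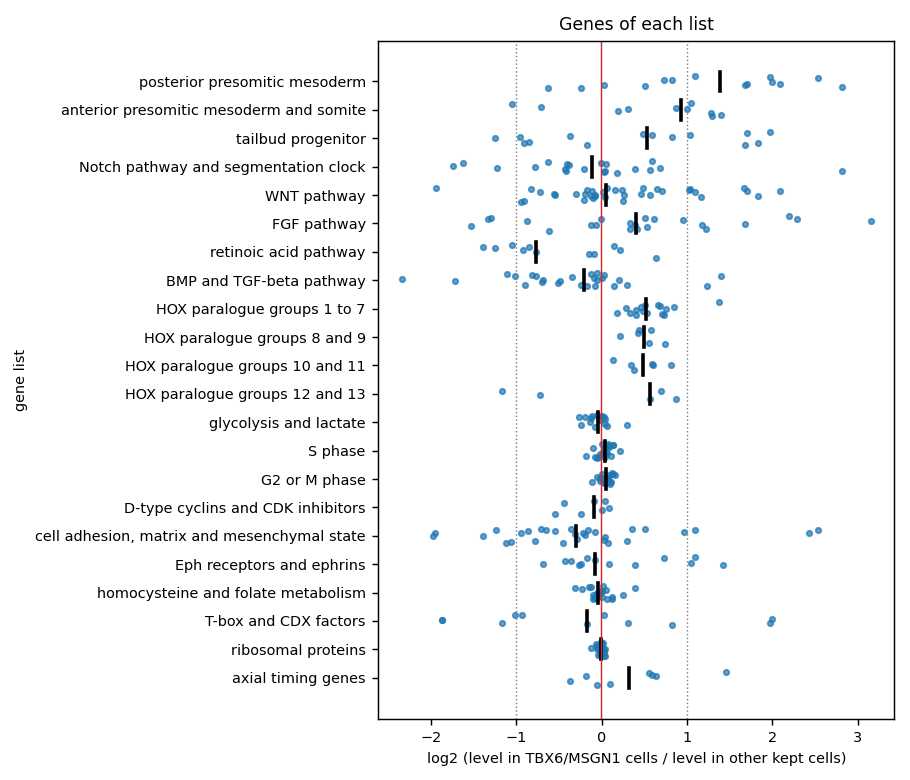
Log2 ratio of the level in TBX6/MSGN1 cells to that in other kept cells for every tested gene of 22 lists; points are genes with vertical jitter, black bars are list medians, the red line is the median of all genes (-0.01) and dotted lines mark 2-fold. The posterior presomitic list has the median farthest to the right, at 1.39, and the retinoic acid list the one farthest to the left, at -0.77.

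HOX genes, which record position along the body axis, mostly had log2 ratios above 0 and under 2-fold. Medians were 0.52 for 16 genes of paralogue groups 1 to 7, 0.50 for 6 of groups 8 and 9, 0.49 for 6 of groups 10 and 11 and 0.56 for 5 of groups 12 and 13. Across the 4 groups, 1 gene was 2-fold higher, HOXB1 (0.87 against 0.33), and 1 was 2-fold lower, HOXA13 (1.34 against 2.99). The shares over all genes tested were 2.08% higher and 3.4% lower. HOXD13 had a log2 ratio of -0.72, and the summed level of groups 12 and 13 was 5.07 in members against 5.50, although 3 of the 5 tested genes were above 0. For groups 1 to 7 the sum was 26.0 against 18.2, below free RNA at 28.4. SALL1, a zinc-finger gene, was the higher one of 8 axial timing genes, at 3.66 against 1.33.

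Lists of general cell functions lay near the median of all genes. None of 23 S phase genes, 20 G2 or M phase genes, 7 cyclin and inhibitor genes, 16 glycolysis genes, 29 ribosomal protein genes or 25 homocysteine and folate genes passed 2-fold either way, with medians of 0.04, 0.05, -0.10, -0.04, -0.01 and -0.04. The summed level of the homocysteine and folate list was 30.1 in members and 30.6 in other kept cells. By barcode the members' sum was 29.8 (29.2 to 30.5) for SBC2, 30.3 (30.0 to 30.5) for SBC3 and 29.7 (29.3 to 30.2) for SBC7. Among its genes CTH, which makes cysteine in the breakdown of homocysteine, was at 2.70 against 2.49. The glycolysis sum was 77.7 against 79.5. In the adhesion list 3 of 30 genes were higher, CDH2, PCDH8 and HAPLN1, and 6 lower, CDH1, FN1, ITGA8, COL1A1, COL1A2 and EPCAM. These counts stand beside 2.08% higher and 3.4% lower over all genes tested.

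TBX6/MSGN1 cells were split by TBXT, the T-box gene of the early mesoderm and tailbud, and then set against MEOX1, a split added after the values were seen. TBXT had no molecule in 238 members, was above 0 and under 2 in 624, and was at least 2 in 866 (50.1%). Of 589 members with TBXT at 5 or more, 509 (86.4%) had MEOX1 under 2 and 36 (6.11%) had MEOX1 at 5 or more. Of 862 members with TBXT under 2, 507 (58.8%) had MEOX1 at 5 or more. The members thus held a TBXT-high, MEOX1-low group and a TBXT-low, MEOX1-high group of 509 and 507 cells, with 36 members high in both and the others at lower or middle levels of 1 or both genes. Of those others, 196 had both genes under 2 and 61 had both at 2 to 5. A further 163 had TBXT at 2 to 5 with MEOX1 under 2, and 159 had the reverse. Between the TBXT-high and the MEOX1-high group 380 of 8714 genes (4.36%) were at least 2-fold higher in the TBXT-high one and 300 (3.44%) lower. The 6 highest by ratio were RHOV, RASGRP3, PPP1R14C, EPHA1, FGF8 and HOXC13, and the 6 lowest NPY, NTN1, DMRT1, CDH20, CA2 and RND2. EPHA1, an Eph receptor gene, was at 0.547 in the TBXT-high group and 0.035 in the MEOX1-high one, and CA2, a carbonic anhydrase gene, at 0.0292 and 0.769.

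**Figure D3:**
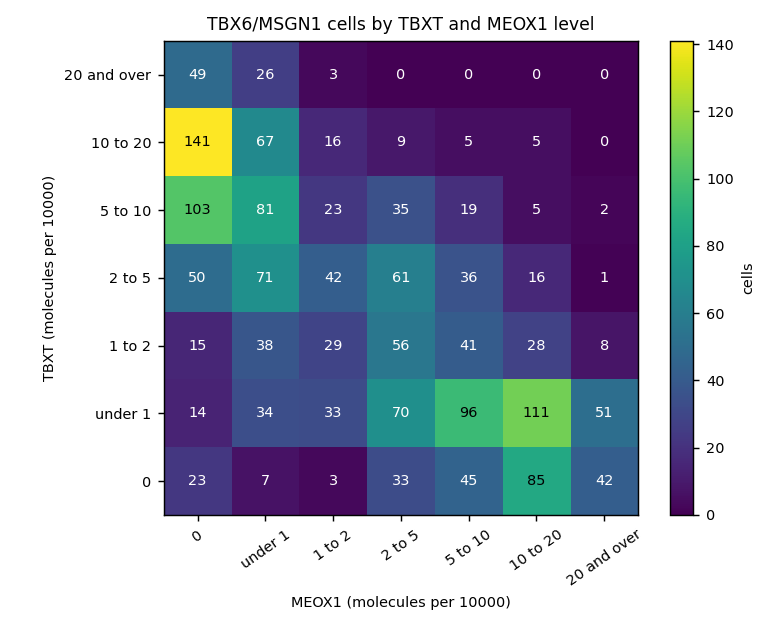
Number of TBX6/MSGN1 cells in each combination of TBXT level (vertical) and MEOX1 level (horizontal), both in molecules per 10000 gene molecules. Cells gather at high TBXT with little MEOX1 and at high MEOX1 with little TBXT.

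Splitting the members at a TBXT level of 2 gave 175 of 8615 genes (2.03%) higher in TBXT cells and 127 (1.47%) lower. FGF8, the ligand of the posterior FGF gradient, was at 3.52 in TBXT cells, 0.500 in cells with little TBXT and 0.211 in cells with none. RASGRP3, an activator of Ras, was at 3.21, 0.339 and 0.229, and WNT3A at 2.32, 0.488 and 0.213. For these 3 genes the levels outside the TBXT cells were below free RNA (0.62, 0.63 and 0.75). PPP1R14C, a phosphatase inhibitor gene, RHOV, FGF19 and HOXC13 were the others with the largest ratios.

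The lower genes included transcription factors of the somite. MEOX1 was at 1.98 in TBXT cells, 7.60 with little TBXT and 11.5 with none, and FOXC2 at 2.78, 8.95 and 12.6. NTN1, a secreted guidance protein, was at 0.541, 2.17 and 4.03, and the neuropeptide gene NPY at 0.169, 0.717 and 1.48. DMRT1, a Z-linked gene known from testis determination in birds, the cadherin gene CDH20 and the FGF receptor-like gene FGFRL1 completed the lowest 6 with MEOX1. In the list of anterior presomitic and somite genes 7 of 10 were lower in TBXT cells, and in the tailbud progenitor list 8 of 12 were higher, SOX2 and CDX2 among them. The shares over all genes tested in this split were 1.47% lower and 2.03% higher.

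DLL1 and RSPO3 did not follow the split. DLL1 was at 5.22 in TBXT cells, 4.38 with little TBXT and 5.93 with none, and RSPO3 at 3.87, 4.09 and 3.77. PCDH8 was at 2.30, 3.73 and 6.32, NOTCH1 at 2.30, 2.98 and 4.25, and the WNT effector LEF1 at 2.19, 3.06 and 4.00. VENTX went the other way, at 3.76, 2.87 and 1.75, as did KCNS3 at 0.886, 0.514 and 0.348. FGF18 was at 1.81, 1.34 and 1.29, and all 3 values were above free RNA.

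HOX levels were higher in the TBXT cells in every group of paralogues. From no TBXT through little TBXT to TBXT cells, the summed level was 18.6, 20.7 and 33.3 for groups 1 to 7, 10.6, 12.8 and 23.5 for groups 8 and 9, 12.1, 14.4 and 21.8 for groups 10 and 11, and 2.55, 3.47 and 7.30 for groups 12 and 13. HOXB9 was at 3.55, 4.67 and 11.3. HOXC13 was at 0.067, 0.133 and 0.797. Free RNA held 28.4, 13.2, 11.5 and 4.205 for these 4 groups, above both classes outside the TBXT cells for groups 1 to 7, 8 and 9, and 12 and 13. HOXB9 without TBXT and HOXC13 in both those classes were likewise below free RNA (3.94 and 0.24). The glycolysis sum was 71.4, 76.2 and 80.8, with LDHA, which makes lactate, the 1 gene of 16 past 2-fold, and the S phase sum 31.7, 33.0 and 32.5. Over all genes tested in this split 2.03% were higher in TBXT cells, beside which 1 gene of 16 is not a result.

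Depth and markers of another tissue moved with these classes. Median depth was 24212 molecules without TBXT, 41920 with little TBXT and 27597 in TBXT cells. The part of depth in the TBXT class of a cell was not tested. The limb bud mesenchyme sum was 8.71, 11.2 and 6.80, and over members by depth it was 4.97 under 20000 molecules, 3.92 at 20000 to 40000 and 12.5 above. Among the members of 20000 to 40000 molecules alone the TBXT split gave 500 genes past 2-fold, against 302 over all members. The part of mixed cells in the class with little TBXT was not tested.

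The members were set beside 3 groups of cells that stand for earlier and later steps of the same lineage. The progenitor set was 255 cells with TBXT and SOX2 and without the member level of TBX6 and MSGN1, the anterior set 258 cells with a summed RIPPLY2 and MESP1 level of at least 2, and the somite set 958 cells with a summed TCF15 and MEOX1 level of at least 4, of which 81.6% held a TCF15 molecule. The genes that set each group are not results. Against the progenitor set 313 of 8732 genes (3.58%) were higher in members and 244 (2.79%) lower, or 557 (6.38%) either way. Higher were NPY, RND2, MEOX1, B3GALT5, FOXC2 and PCP4, and lower were PALMD, the zinc-finger gene ZIC2, the myelin protein gene PMP22, STAC, the cadherin gene CDH6 and HES5. PMP22 was at 0.60 in members and 5.29 in progenitor cells, and ZIC2 at 0.38 and 3.45.

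Against the anterior set fewer genes differed, 101 of 8563 (1.18%) higher in members and 83 (0.969%) lower. The higher ones by ratio included TBXT, WNT3A, FGF8, PPP1R14C and ENHO. The lower ones were CITED4, NPY, FGFRL1, CDH20, the paired-box gene PAX7 and LFNG, which was at 0.77 in members and 2.52 in the anterior set. DLL1 was at 9.11 and PCDH8 at 7.28 in the anterior set, against 4.91 and 3.37 in members. LEF1, at 4.09 in the anterior set, was also above its level in members. Against the somite set 189 of 8648 genes (2.19%) were higher and 182 (2.1%) lower, or 371 (4.29%) either way. CD3E, VENTX, FGF18, KCNS3, CDX4 and ENHO were higher, and CYP1B1, MAFA, MXRA5, FABP5, TBX22 and SULF1 lower.

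**Figure D4:**
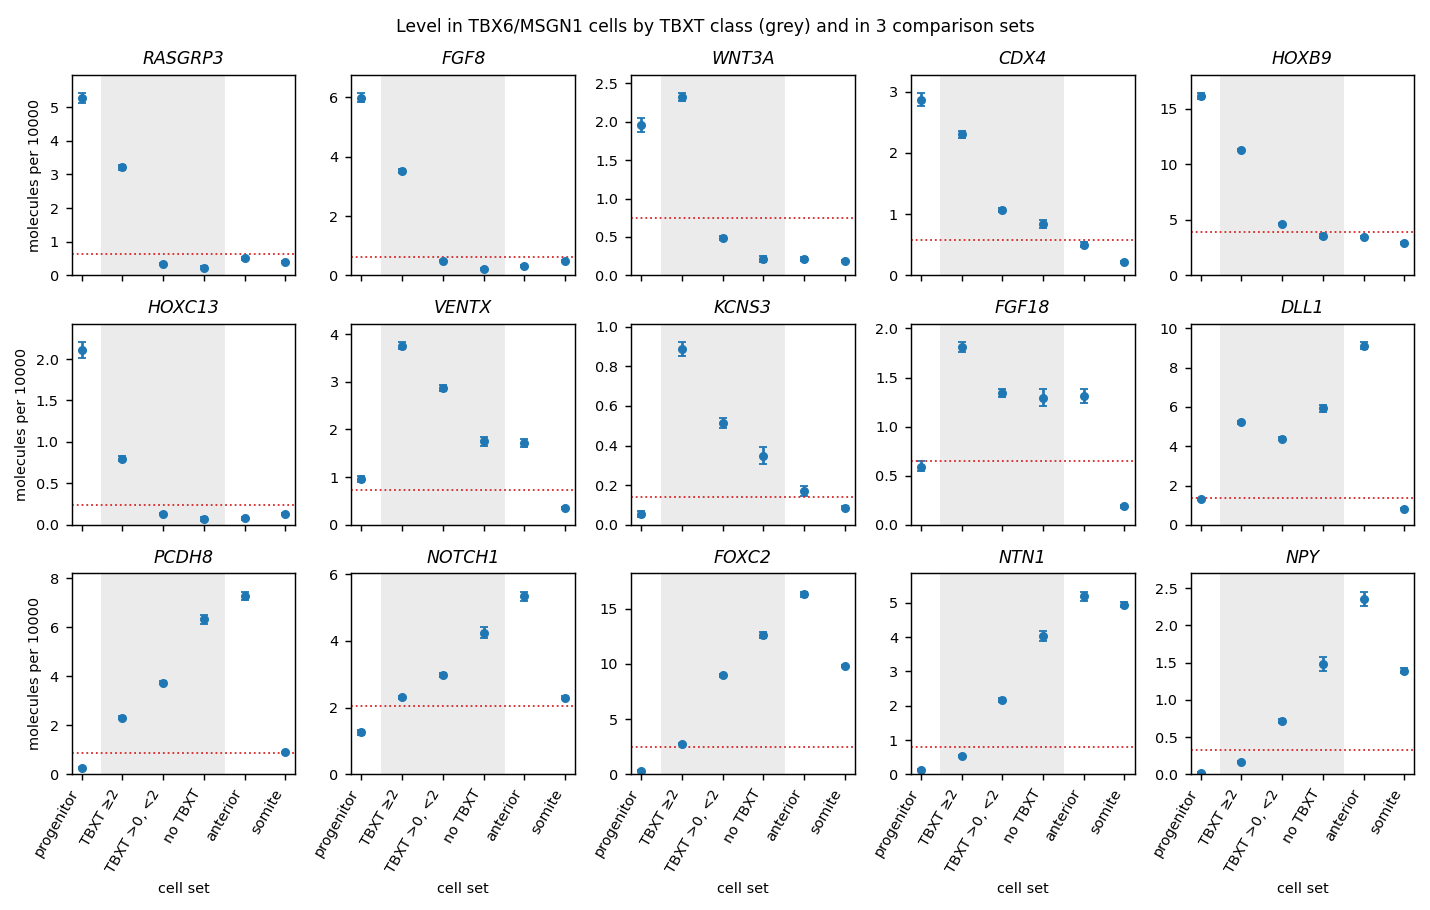
Level of 15 genes in the progenitor set, in TBX6/MSGN1 cells by TBXT class (grey band), and in the anterior and somite sets; points are summed molecules per 10000 gene molecules with exact Poisson 95% intervals, and the dotted red line is free RNA. FGF8 and WNT3A are above free RNA only in the progenitor set and TBXT cells, VENTX, KCNS3, FGF18 and WNT3A are highest within the band, and DLL1, NOTCH1 and FOXC2 are highest in the anterior set.

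Of the genes plotted across these sets, VENTX, KCNS3, FGF18 and WNT3A had their highest level inside the TBX6/MSGN1 cells. WNT3A was at 2.32 (2.26 to 2.37) in TBXT members and 1.95 (1.86 to 2.04) in the progenitor set. VENTX, KCNS3 and FGF18 were named for their ratio over other kept cells, which include the comparison sets. Their peak inside the members thus follows in part from that choice. KCNS3 was at 0.0533 in the progenitor set, 0.886 in TBXT members, 0.169 in the anterior set and 0.0872 in the somite set. FGF18 was at 0.594, 1.81, 1.31 and 0.187 in the same order. DLL1, PCDH8, NOTCH1, FOXC2, NTN1 and NPY were instead highest in the anterior set, and RASGRP3, FGF8, CDX4, HOXB9 and HOXC13 in the progenitor set.

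LFNG was at least 2 in 188 members and absent in 571, at median depths of 26827 and 24946 molecules. Leaving LFNG itself aside, 71 of 8539 genes (0.831%) were at least 2-fold higher in LFNG cells and 30 (0.351%) lower. The Notch targets HES1 and HES5 were the genes of the Notch list past 2-fold, with HES5 at 0.85 against 0.18, both below its free RNA level of 1.70. NRARP was at 3.61 against 2.25, NOTCH1 at 4.71 against 2.55 and PCDH8 at 5.77 against 3.34, while DLL1 was at 6.09 against 5.75. TCF15, PAX7 and TBX22 of the anterior and somite list were higher. The 6 highest genes by ratio were CA2, RASD1, HES5, NPY, CDH20 and FABP5. The genes lowest in LFNG cells were the limb and lateral mesoderm genes PITX1, HAND2, PRRX1, ISL1, TBX3 and LIX1, and the limb bud sum was 3.44 against 8.10. The part of mixed cells in this was not tested.

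Cells that passed through MSGN1 alone and through TBX6 alone also differed. In the 118 MSGN1 cells against the 556 TBX6 cells, 34 of 8639 genes (0.394%) were higher and 99 (1.15%) lower. MEOX1 was at 2.13 in MSGN1 cells and 9.63 in TBX6 cells, NTN1 at 0.63 and 3.43, and DLL1 at 2.44 and 5.39. The limb bud sum was 13.2 in MSGN1 cells and 8.64 in TBX6 cells, and PITX1 and GATA5, genes of the limb and lateral mesoderm, were among the 6 highest by ratio, and the part of such cells in the difference was not tested.

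The share of TBX6/MSGN1 cells by lipid barcode was 65 of 1187 cells (5.48%, 4.25 to 6.93%) for SBC2, 464 of 3580 (13%, 11.9 to 14.1%) for SBC3 and 70 of 1025 (6.83%, 5.36 to 8.55%) for SBC7. A further 1129 members had no clear barcode, and 17.3% of such cells were members. A barcode was assigned to 34.7% of members and 49.0% of other kept cells. Members with a barcode were deeper than the other members, with medians of 44475, 45796 and 80670 molecules against 26089 without one. The SBC3 share was above the other two in this assignment, but the shares of the 3 barcodes overlapped in their intervals with at most 10% mitochondrial molecules (9.52%, 11.9% and 12.1%), and the SBC7 share was 2.04% in cells of at most 50000 molecules. With no treatment known and no label for which embryos share a barcode, the barcodes were not compared further.

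**Figure D5:**
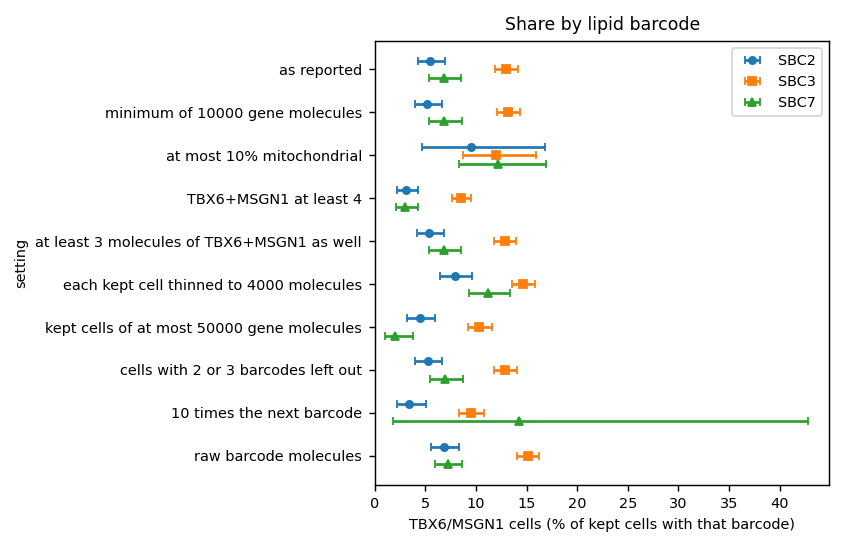
Share of TBX6/MSGN1 cells among kept cells of each lipid barcode, in percent, as reported and under 9 other settings, with exact Clopper-Pearson 95% intervals for counting error. SBC3 is at 13% as reported, SBC2 at 5.48% and SBC7 at 6.83%, and the order of SBC2 and SBC7 changes with the setting; SBC7 is also above SBC3 at most 10% mitochondrial (12.1% and 11.9%) and at 10 times the next barcode (14.3% and 9.52%), with overlapping intervals.

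TBXT cells were 35.4% (23.9 to 48.2%) of SBC2 members, 38.4% (33.9 to 43.0%) of SBC3 members and 32.9% (22.1 to 45.1%) of SBC7 members. These intervals overlap.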

How the data were processed

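The authors deposited counts, whole numbers of distinct molecules per gene and cell, made, per the file headers, with the BD Rhapsody WTA pipeline 1.11 on GRCg7b with Ensembl release 107, intronic reads included and the cell number set to 60000. The submitters' processing notes name R 3.6.2 and Seurat, with no role. Of 28190 gene columns 12399 matched a RefSeq symbol (GRCg7b) and 15073 carry an Ensembl identifier only.

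Molecules were summed over the cells of each set and scaled to 10000 (Python 3.11.15, numpy 2.4.6, scipy 1.17.1, pandas 2.3.3, matplotlib 3.10.9). Genes needed 100 molecules over both sets and a level of 0.1 in either. Intervals are exact at 95%. PCR and capture error are not covered. A barcode was assigned at 5 times its background median and 3 times the next barcode. Named genes were the 3 given markers, the 15 highest and 8 lowest by ratio with the same direction in every barcode (at least 200 molecules and a level of 0.5), the 4 highest and 2 most different of each list, and the 6 most different each way in other comparisons. Others named were chosen after their values were seen, and 2 genes that the rule gave are not reported here.

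On simulated data 200 of 200 genes changed 3-fold were recovered among 8844, and 0 unchanged genes were called. A 3-fold change lies past the 2-fold threshold, so this checks the calculation and does not bear on doublets, mixed cells or differences between embryos. The members and lists were chosen with earlier results of these data known, and no list is independent support. The search of promoter sequences was not run and no sequence is printed. Doublets were not called, since no caller was run, and 2 settings that limit them were tried instead.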

Additional observations from a re-analysis of the deposited data

Results flagged for a closer look

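The table has barcode columns SBC4, SBC5 and SBC8, which the comparisons did not use. TBX6/MSGN1 cells held 483 SBC4, 272 SBC5 and 218 SBC8 molecules, in 290 (16.8%), 222 (12.8%) and 184 (10.6%) of 1728 cells, where a count of 0 would allow up to 0.174% of cells. No cell held more than 16, 4 and 4 of them. In other kept cells the shares were 23.8%, 15.5% and 13.3%. There are no control samples to set these against.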

How the results depend on the processing

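No paired analysis was possible because the libraries come from 1 pooled sample and the labels number no replicates. The counts of genes at least 2-fold higher and lower than other kept cells (184 and 301) and apart from the anterior, progenitor and somite sets (184, 557 and 371) were 1350, 2297, 3194, 3914 and 3088 with no filter on low counts, and 81, 121, 60, 240 and 139 at 3-fold. With at most 10% mitochondrial molecules 85 genes were higher, 146 lower, and 98 and 143 apart from the anterior and somite sets. With at most 50000 molecules 474 were lower, and 346 and 600 apart from those sets. In SBC3 cells alone 241 were apart from the somite set. The TBXT split gave 500 genes at 20000 to 40000 molecules and 680 between the TBXT-high, MEOX1-low and TBXT-low, MEOX1-high members, against 302. These 3 settings were chosen after seeing the data.

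The share of 14.0% was 9.67% with at most 10% mitochondrial, 9.86% at a TBX6 and MSGN1 level of 4, and 16.7% in thinned cells. For SBC2, SBC3 and SBC7 the shares were 3.12%, 8.55% and 3.02% at a level of 4, and 7.92%, 14.7% and 11.2% in thinned cells. At 10 times the next barcode they were 3.43%, 9.52% and 14.3%. The last rests on few cells, with an interval of 1.78 to 42.8%. At most 10% mitochondrial molecules gave SBC2 9.52% and SBC7 12.1%. At most 50000 molecules gave SBC3 10.3% and SBC7 2.04%. Raw barcode molecules gave SBC3 15.1%. The cause of these shifts was not tested, apart from the filter and the fold threshold, which by construction test more genes or call fewer.

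For the 23 genes that the rule took by ratio, all 322 values under 14 alternatives kept their sign and 318 stayed past 2-fold, while 145 moved beyond the counting interval of the reported value and 177 did not. The rule took these genes for large ratios with the same direction in every barcode, and the alternatives reuse the same cells. Their kept signs are thus no independent support. The DLL1 log2 ratio ran from 2.25 to 3.11 and that of HBBA from -6.17 to -0.70. Of the counts within lists 557 were within 1.5 times the reported count and 59 were not. The 557 include counts that were 0 both times, so this number does not measure how stable the lists are. Genes near the level of 0.1 rest on few molecules. Free RNA levels are shares of the molecules in barcodes under 500 molecules, and how much free RNA a kept cell holds was not measured. Members held the 8 erythroid genes at 1.26, against 39.9 in free RNA, so the free RNA level is not a floor for levels in cells.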

Other observations

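MSGN1 and KCNS3, which had the highest ratio of the genes named, lie near each other on chromosome 3, with 33.4 kb between them on GRCg7b in RefSeq. This was looked up after the values were seen. ZPAX, the protein-coding gene between them, had 28 molecules in all members and 25 in other kept cells, a log2 ratio of 2.72. On the other side GEN1, a DNA resolvase gene, had a log2 ratio of 0.55 between TBX6/MSGN1 cells and other kept cells, and SMC6, a gene of the SMC5/6 complex, 0.65. KLHL22, the nearest measured gene on the far side of TBX6, had -0.10.

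Between the barcodes, 262 of 9289 genes (2.82%) with at least 20 molecules in the members of each differed by more than 2-fold from the highest to the lowest. HINTW, on the W chromosome, was at 0.604 in SBC2 members, 0.0278 in SBC3 members and 0.0372 in SBC7 members, and CRABP1, a retinoic acid-binding protein gene, at 0.118, 0.247 and 1.30. No label says which or how many embryos share a barcode, so these values describe the pooled embryos and no treatment.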
